A study of Brassica napus with 6 samples.

Results

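The long genes described here are the 2024 gene models with a span of at least 10000 bp among the 65535 listed in a table of read counts from the Brassica napus (oilseed rape) hybrid HZ62. They made up 3.09% of the listed genes. The span runs from the start to the end of a gene model on the chromosome with its introns, so it is not the length of the mature transcript. The rule uses the span and no read count, and it was set with earlier results of these data known. The tissues were seedling (2 weeks old), flower bud (under 2 mm) and silique, the seed pod (3 to 5 cm long), each with 2 libraries. The genotype of every library is given as wild type, and plants were kept at 22 °C during 16 h of light and at 18 °C during 8 h of darkness. Polyadenylated RNA was sequenced. The labels do not state whether both libraries of a tissue stem from separate plants, and p-values therefore reflect only the spread between these samples, possibly a technical one. The parents of the hybrid, which the series also concerns, were not analysed here.

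In plants the length of a gene model is set largely by its introns, and most plant genes are compact. A long model usually holds either many exons or a few very long introns, which often contain transposon-derived sequence. Polyadenylated RNA is mostly spliced, so reads fall on exons and introns add span but few reads. As an allotetraploid, Brassica napus carries the A subgenome, shared with Brassica rapa, beside the C subgenome, shared with Brassica oleracea. None of the 2024 identifiers matched a gene name in the reference table used, so genes are given by identifier, position and level, with no function. For the same reason the tissue labels were not checked against marker genes.

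Library totals in the count table ran from 2538852 reads in seedling replicate 2 to 15448095 in seedling replicate 1, and the other 4 libraries held between 6689132 and 8111828. The table reached 13 chromosomes, A1 to A10, C1, C2 and part of C3, and is therefore incomplete. The authors' normalized table lists 80932 genes, and the count table held 63.9 to 64.6% of the reads recovered from it, by library. Library totals, shares of reads and comparisons of A with C therefore cover the listed genes only. Seedling replicate 2 is the shallowest library and carries the largest error. Levels are in CPM, the reads of a gene relative to the reads on tested genes of its library times a scaling factor from the trimmed mean of M values (TMM). Within each library between 83.0% and 90.0% of the counts above 0 were even numbers, so single reads were not counted independently. Intervals cover counting error only, treat each read as independent, and are therefore too narrow.

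The long genes lay on both subgenomes in like proportion. They were 1395 of the A genes (3.14%), 616 of the listed C genes (3.00%) and 13 of the genes on unplaced sequences (2.11%). By chromosome their share ran from 2.44% on A7 to 3.63% on A10. On the plus strand lay 984 of them (48.6%). Their spans had a median of 12754 bp, with quartiles of 11147.5 and 15850.2 bp, against a median of 1976 bp for all listed genes. Spans of 10 to 15 kb were found in 1412 members, 15 to 20 kb in 381, and 20 kb and over in 231. Together the members covered 29.6 Mb, or 16.2% of the summed span of all listed genes.

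**Figure D1:**
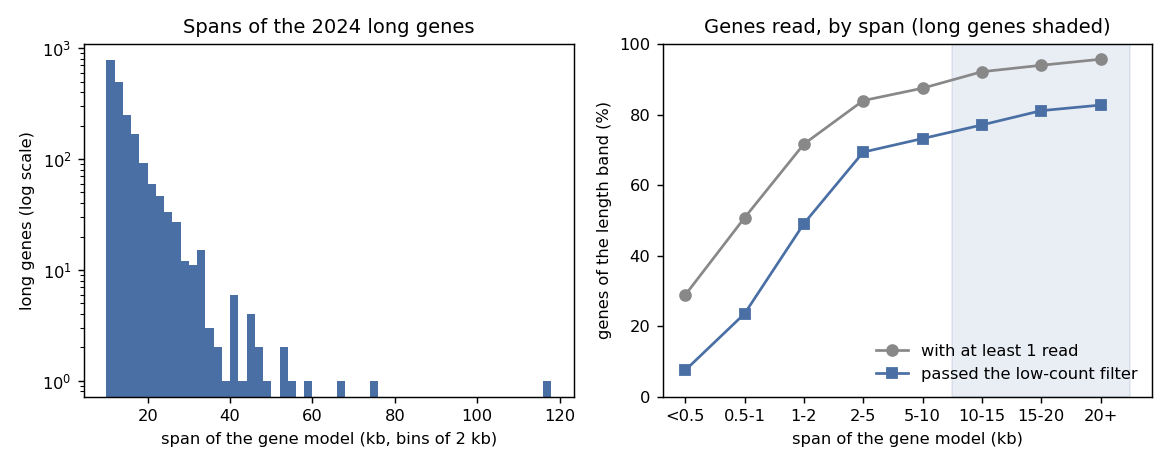
Left, number of long genes (log scale) against the span of the gene model in bins of 2 kb. Right, percent of listed genes with at least 1 read and percent that passed the filter on low counts, by span, with the bands of 10 kb and over shaded. The share that passed rises from 7.52% under 500 bp to 82.7% at 20 kb and over.

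The threshold divides genes of nearly equal span. Just inside it, ZS11A01G011950 (10000 bp, chromosome A1, 6636798 to 6646797, plus strand) had 119 and 12 reads in seedling, 162 and 188 in bud, and 99 and 55 in silique. ZS11C02G007050 (10002 bp, chromosome C2, 4487847 to 4497848, minus strand) had 638 and 88, 458 and 448, and 226 and 236 reads in the same order. Just outside it, ZS11A10G009460 (9997 bp, chromosome A10, 9368617 to 9378613, plus strand) had 738 and 106, 296 and 330, and 386 and 312 reads. ZS11A09G034330 (9999 bp, chromosome A9, 28035081 to 28045079, minus strand) had 2 and 0, 4 and 0, and 2 and 4 reads. Of these 4 genes, only the last had fewer than 10 reads in every library.

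Long genes often shared their span with other gene models. Of the members, 758 (37.5%) overlapped another model, against 17.9% of the genes under 10 kb, and 491 (24.3%) held at least 1 whole model inside their span, against 2.82%. The models inside long genes numbered 650 in 651 host pairs, with a median span of 1456.5 bp and up to 7 in 1 host. Of these pairs 601 lay on opposite strands and 50 on the same strand.

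None of the 650 models inside long genes had a read in any library, nor did any of the 2496 models in the table that lie inside another. Among all listed genes at the spans of the 650, 44.6% passed the filter on low counts. How reads that fall on more than 1 model were counted, and whether strand was used, is not stated in the labels or files used. The count of a host may therefore include or lack reads from the model inside it, and the levels of the 758 overlapping members are uncertain. The shared stretch covered a median of 11.7% of the span of these 758, and over 50% in 54 of them. Odd counts were also commoner there: even numbers made up 68.7 to 81.8% of the counts above 0 in overlapping members and 88.9 to 93.0% in the 1266 that overlapped none.

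Most long genes were read in HZ62. At least 1 read was found for 1880 members (92.9%), against 70.8% of the genes under 10 kb, and 144 members had none. Of these 144, 105 overlapped no other model. The filter on low counts was passed by 1588 members (78.5%), against 51.5% of the shorter genes, and the remaining 292 with reads were not tested between tissues. Within the long genes the share tested rose with span, from 77.1% at 10 to 15 kb to 81.1% at 15 to 20 kb and 82.7% at 20 kb and over. It was 84.6% in overlapping members and 74.8% in the others.

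Where genes lay close together, more of the long genes were read. Counting models within a window of 500 kb, 66.0% of members passed the filter at the lowest density (up to 64 models), 81.6% at the middle one (65 to 84) and 88.0% at the highest (85 to 123), in 3 classes of nearly equal size. Shorter genes gave 40.6%, 53.3% and 61.2% in the same classes. The median number of models in the window was 74 for long and shorter genes alike. The median gap to the nearest model was 214 bp for long genes and 662 bp for the others. Overlapping models entered as having no gap, and overlap was commoner in long genes (37.5% against 17.9%).

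Per kilobase of span the values of long genes lay below those of shorter ones, but the divisor is the span that defines the long genes. Tested long genes had a median of 1.69 CPM per kb of span over the 3 tissues, and tested genes under 10 kb 4.39 CPM per kb. The median fell with span, from 2.03 CPM per kb at 10 to 15 kb to 1.57 at 15 to 20 kb and 0.911 at 20 kb and over. In reads per gene the order was the other way, with a median of 23.8 CPM in long and 11.3 CPM in shorter genes. The medians of the same bands were then 23.6, 25.2 and 22.8 CPM, without a steady fall. Since the span counts introns, the value per kilobase understates the level of the transcript by an amount that differs between genes. The median level of the tested long genes was close in the 3 tissues, at 1.59 (seedling), 1.51 (flower bud) and 1.55 CPM per kb (silique).

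The longest models were not the most read. ZS11A05G040180, with 116192 bp the longest of all (chromosome A5, 28470658 to 28586849, plus strand), holds 2 other models and had 0 reads in the 6 libraries. The next, ZS11A10G008050 (74838 bp, chromosome A10, 6382144 to 6456981, plus strand), overlaps no model and also had 0 reads. ZS11C03G041170 (67362 bp, chromosome C3, 26329266 to 26396627, minus strand) holds 5 models, 2 of the overlapping ones on its own strand. It stood at 94.5 and 77.6 CPM in seedling, 142.4 and 152.6 in bud, and 122.7 and 124.7 in silique. Its 2 seedling libraries were the lowest and its 2 flower bud libraries the highest, without overlap, but no pair of tissues reached the 2-fold difference needed for a call. Flower bud against seedling gave a log2 fold change of 0.76 ± 0.18 (SE, edgeR quasi-likelihood adjusted p = 0.00449, Benjamini-Hochberg).

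Long genes took about the same share of the reads in each tissue. The share was 7.89% (Wilson 95% interval 7.88 to 7.91) and 7.15% (7.12 to 7.19) in the seedling libraries. Flower bud gave 8.06% (8.05 to 8.08) and 8.02% (8.00 to 8.03), and silique 7.89% (7.87 to 7.91) and 8.04% (8.02 to 8.06). Seedling replicate 2 stood lowest, while seedling replicate 1 lay at the level of silique replicate 1. Seedling averaged 7.52% ± 0.523, flower bud 8.04% ± 0.0337 and silique 7.97% ± 0.104 (SD, n = 2). Relative to the reads recovered from the normalized table, which covers all chromosomes, the same members averaged 4.81%, 5.17% and 5.14% in that order.

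The seedling libraries differed from each other by more than the tissues did. Flower bud exceeded seedling by 0.516 percentage points (two-sided exact permutation p = 0.333, the smallest that 2 libraries against 2 allow), and silique exceeded seedling by 0.442 points (exact permutation p = 0.667). Silique minus flower bud was -0.0737 points (exact permutation p = 0.667), with -0.00056 without silique replicate 1, -0.147 without silique replicate 2, and -0.237 in members that overlap no model. Without seedling replicate 2 the first differences shrank to 0.146 and 0.072 points, and without seedling replicate 1 they grew to 0.886 and 0.812. In members that overlap no model silique exceeded seedling by 0.273 points. A share of reads cannot tell fewer cells of a type from less RNA per cell.

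A single member moved this share in seedling. ZS11A04G027560 (12530 bp, chromosome A4, 20351689 to 20364218, plus strand) had the most reads of any long gene over all libraries together, though not within flower bud. It stood at 4823 and 10009 CPM in seedling, 382 and 333 in bud, and 1724 and 1784 in silique. All 3 tissues stood apart, although the seedling libraries lay far from each other. It was called lower in flower bud than in seedling (log2 fold change -4.38 ± 0.41 SE, edgeR adjusted p = 1.95e-05) and higher in silique against flower bud (2.30 ± 0.37, edgeR adjusted p = 0.00111). The lower level of silique against seedling (-2.08 ± 0.37, edgeR adjusted p = 0.00142) lost its call without silique replicate 1 (-2.06, edgeR adjusted p = 0.0561) or silique replicate 2 (-2.09, edgeR adjusted p = 0.0526), with a fold as large. Without seedling replicate 2 the log2 fold changes against seedling were -3.75 in flower bud and -1.45 in silique, both still called. It holds 3 models of the opposite strand, which share 28.4% of its span, so its level is uncertain. Without it the long genes held 7.45% and 6.37% of the reads in seedling, 8.02% and 7.98% in bud, and 7.72% and 7.86% in silique. The 10 members with the most reads together held 11.4% and 16.9% of the long-gene reads in seedling, against 6.65 to 8.78% in the other 4 libraries. Leaving out these 10, flower bud exceeded seedling by 1.03 points and silique exceeded seedling by 0.797.

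**Figure D2:**
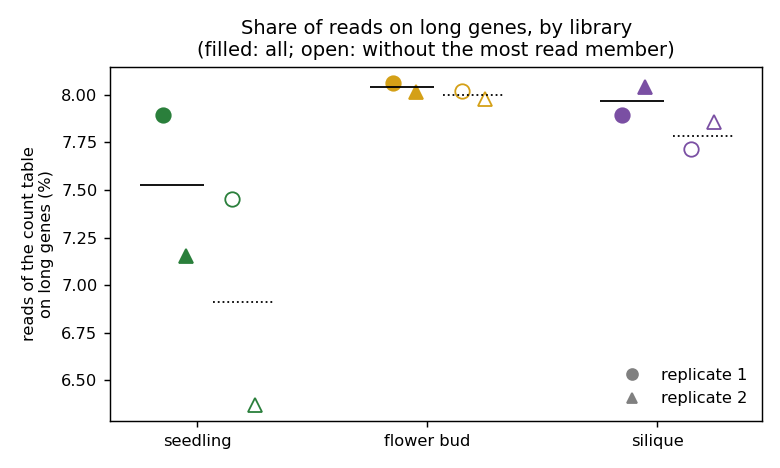
Percent of the reads of the count table on long genes, with 1 point per library, circles for replicate 1 and triangles for replicate 2. Filled symbols and solid bars (means) hold all members, open symbols and dotted bars leave out ZS11A04G027560. Seedling replicate 2 is the lowest library in both sets, at 7.15% and 6.37%. The vertical axis does not start at 0.

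The other members of high abundance changed less. ZS11A09G060470 (15652 bp, chromosome A9, 43317618 to 43333269, minus strand) stood at 701 and 540 CPM in seedling, 1065 and 951 in bud, and 836 and 805 in silique. ZS11A03G010050 (19203 bp, chromosome A3, 4715345 to 4734547, minus strand) stood at 509 and 359, 850 and 773, and 780 and 788 CPM in the same order. Both were lowest in the seedling libraries, and neither was called in any pair because no difference reached 2-fold. Each overlaps 1 other model in part. Per kilobase of span, their means over the tissues were 52.2 and 35.2 CPM, against 253 for ZS11A04G027560.

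Some members hardly moved. ZS11C03G040770 (11309 bp, chromosome C3, 26022191 to 26033499, minus strand) had 212.5 and 161.7 CPM in seedling, 194.9 and 181.1 in bud, and 181.9 and 198.6 in silique. ZS11A10G019760 (13530 bp, chromosome A10, 16264710 to 16278239, minus strand) had 94.0 and 73.5, 87.4 and 86.8, and 87.1 and 82.5 CPM. In both, the seedling libraries enclosed those of the other tissues. They were chosen as the most even of the long genes, so the evenness itself is a description. The second holds another model inside its span.

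Between flower bud and seedling long genes were called about as often as genes at large. A gene was called at an edgeR adjusted p under 0.05 and at least a 2-fold difference. Of the 1588 tested members, 298 (18.8%) were higher and 388 (24.4%) lower in flower bud, where 21.1% of all tested genes were higher and 21.8% lower. In all, 43.2% of the members were called, against a background of 43%, so the total is not a result about long genes. The median log2 fold change was 0.00 over the long genes and 0.12 over all genes tested.

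The called changes of long genes were of a like size to those elsewhere. With members at 0 reads placed at their bound, higher members had a median log2 fold change of 1.69 and lower ones of -2.34, against 1.85 and -2.34 in all genes. A difference of 8-fold or more was found in 69 higher and 140 lower members, together 13.2% of those tested, as in all genes (13.2%). In 679 of the 686 called members (98.98%) the libraries of flower bud and seedling did not overlap, as in 99.15% of all called genes. Seedling had no read of 27 of the 298 higher members, beside 934 of 7253 higher genes in all, and flower bud had none of 16 of the 388 lower members, beside 492 of 7483.

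The balance towards lower calls held with other scaling factors and not under every setting. Relative log expression factors gave 287 higher and 400 lower members (18.1% and 25.2%, beside 20.3% and 22.4% of all genes). Upper quartile factors gave 317 and 374 (19.96% and 23.55%, beside 22.37% and 21.15% of all genes). Limma on the authors' normalized values, which changes scaling, filter and test together, called 468 members higher and 279 lower, and the median of all genes was then 0.49. Without seedling replicate 1 there were 375 higher and 374 lower. All genes turned in these last settings too, at 30.9% higher and 14.7% lower with limma (long genes 30.0% and 17.9%) and 24.6% and 20.6% without that library (long genes 23.6% and 23.6%). A stricter test of a difference beyond 2-fold (glmTreat) left 172 higher and 295 lower members, or 10.8% and 18.6%, beside 12.1% and 15.9% of all genes. By adjusted p alone the long genes were above all genes in both directions, at 30.0% against 29.2% higher and 32.0% against 26.9% lower. With no filter on low counts they were so as well, at 16.3% against 15.7% and 21.0% against 16.5%. For genes of 8000 bp and over, the share called lower was 21.9%, beside 21.8% of all genes.

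By the naming rule, which leaves out members that overlap another model, the member with the largest fitted rise in flower bud was ZS11A10G022160 (15570 bp, chromosome A10, 17547466 to 17563035, plus strand). It had 732 and 790 reads in the flower bud libraries, or 82.8 ± 3.99 CPM (SD, n = 2), and 0 reads in the other 4 libraries. This was at least 445-fold higher relative to seedling (edgeR adjusted p = 9.64e-07) and at least 420-fold higher relative to silique (edgeR adjusted p = 1.28e-06), taking 3 reads over both libraries as the floor. ZS11A06G013860 (11305 bp, chromosome A6, 7764250 to 7775554, minus strand) had the same pattern, with 314 and 346 reads in flower bud, 35.9 ± 2.26 CPM, and 0 reads elsewhere. It was at least 193-fold higher relative to seedling (edgeR adjusted p = 4.53e-06) and at least 182-fold higher relative to silique (edgeR adjusted p = 7e-06). By the same rule, both are also the members with the largest fall from flower bud to silique.

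The named genes that fell in flower bud were seedling genes with a trace left in silique. ZS11A01G038510 (11933 bp, chromosome A1, 29060532 to 29072464, plus strand) had 1508 and 383 reads in seedling, or 106.5 and 192.9 CPM, 0 and 1 read in bud, and 11 and 15 in silique. Its seedling level was 2154 times that in flower bud, with a counting interval of 386 to 85104 (edgeR adjusted p = 6.1e-07). Its fitted log2 fold change of -11.04 moved to -10.34 without flower bud replicate 1 and to -13.28 without flower bud replicate 2, where no read is left in flower bud. ZS11A09G056730 (11911 bp, chromosome A9, 41303534 to 41315444, plus strand) had 259.5 and 281.1 CPM in seedling, 0.22 and 0.43 in bud, and 1.20 and 1.45 in silique. Its log2 fold change was -9.63 ± 0.29 (SE, edgeR adjusted p = 3.03e-07) in flower bud and -7.66 ± 0.25 (edgeR adjusted p = 3.09e-07) in silique, both against seedling, and the first was -10.27 without flower bud replicate 2. Neither overlaps another model, as is true of every gene named for its change.

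**Figure D3:**
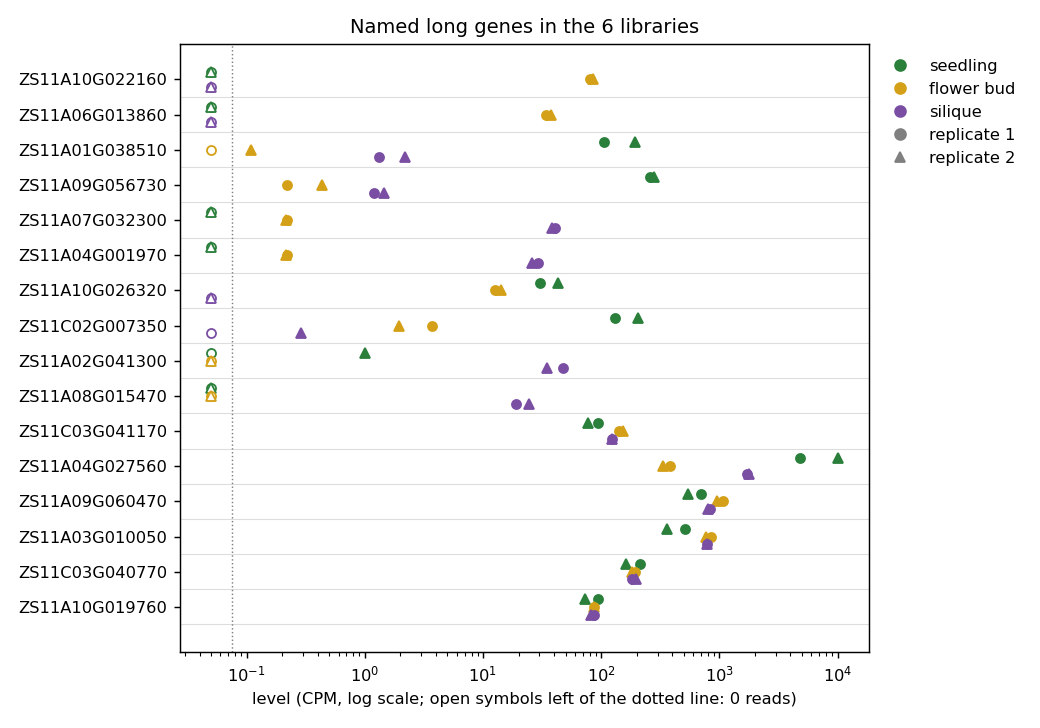
Level of each named long gene in the 6 libraries, in CPM on a log scale, with 1 symbol per library and open symbols left of the dotted line for 0 reads. The first 10 genes are those named for their change and go from at most 6 reads over both libraries of 1 tissue to a mean of 21.8 CPM or more in another, and the last 6 are the longest with reads, the most abundant and the most even.

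Siliques and seedlings differed at somewhat fewer long genes. In silique 238 members (14.99%) were higher and 331 (20.8%) lower, where 16.2% of all genes were higher and 18% lower. The total of 35.8% stands against a background of 34.2%. The median log2 fold change was -0.03 over the long genes and 0.02 over all genes, while called members had medians of 1.82 (higher) and -1.95 (lower). A difference of 8-fold or more was found in 65 higher and 91 lower members (9.82%, against 9.72% of all genes). Library values did not overlap in 566 of the 569 called members (99.47%), as in 99.05% of all called genes. With limma on the normalized values 327 were higher and 223 lower (21.0% and 14.3%, beside 22.1% and 11.9% of all genes), and without seedling replicate 1 there were 319 and 306 (20.1% and 19.3%, beside 20.7% and 17.3%), so the balance turned in all genes as in the long ones. By glmTreat 143 were higher and 211 lower. These were 9.01% and 13.3% of the members and 8.68% and 11.1% of all genes, so the long genes were then above all genes in higher calls too.

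Both named genes that rose in silique were all but absent elsewhere. ZS11A07G032300 (10572 bp, chromosome A7, 24309473 to 24320044, minus strand) had 340 and 264 reads in silique, or 39.6 ± 1.69 CPM (SD, n = 2), 2 reads in each flower bud library and 0 in seedling. Relative to seedling it was at least 213-fold higher (edgeR adjusted p = 1.74e-06). ZS11A04G001970 (16994 bp, chromosome A4, 1248147 to 1265140, plus strand) had 244 and 180 reads in silique, 27.7 ± 2.18 CPM, and again 2 reads in each flower bud library and 0 in seedling, at least 149-fold higher relative to seedling (edgeR adjusted p = 4.35e-06).

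Of the named genes that fell in silique, the first kept part of its level in flower bud. ZS11A10G026320 (13377 bp, chromosome A10, 19532644 to 19546020, plus strand) had 30.1 and 43.3 CPM in seedling, 12.7 and 14.1 in bud, and 0 reads in silique. Relative to seedling it was at least 186-fold lower (edgeR adjusted p = 3.44e-06), and its level stepped down across seedling, flower bud and silique with no overlap. ZS11C02G007350 (14860 bp, chromosome C2, 4690294 to 4705153, plus strand) had 1864 and 406 reads in seedling, or 131.7 and 204.5 CPM, 34 and 18 reads in bud, and 0 and 2 in silique. The seedling level was 1069 times that in silique, with a counting interval of 296 to 8835 (edgeR adjusted p = 1.21e-06). The fitted log2 fold change of -10.14 moved to -9.09 without silique replicate 1 and to -13.47 without silique replicate 2, where no read is left in silique.

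Siliques and flower buds differed at the fewest long genes. In silique 245 members (15.4%) were higher and 204 (12.8%) lower than in flower bud, against 14.5% and 13% of all genes, and the total of 28.3% stands against 27.4%. The median log2 fold change was 0.02 over the long genes and -0.01 over all genes. Called changes had a median of 2.18 among the higher and -1.97 among the lower members, and 81 and 56 of them differed 8-fold or more (8.63%, against 9.38% of all genes). In all 449 called members the libraries did not overlap, as in all 9414 called genes. With limma on the normalized values 187 were higher and 191 lower (11.99% and 12.25%, beside 10.76% and 12.01% of all genes), and glmTreat gave 163 and 115 (10.3% and 7.24%, beside 8.58% and 7.46%). Leaving out 1 library of flower bud or silique left 192 to 219 higher and 137 to 151 lower members. Their lower share was then 8.63 to 9.51%, and that of all genes 8.07 to 8.93%. Leaving out a seedling library gave 261 or 266 higher and 224 or 227 lower members.

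The named genes that rose from flower bud to silique were silent in flower bud. ZS11A02G041300 (12961 bp, chromosome A2, 30748383 to 30761343, plus strand) had 396 and 240 reads in silique, or 41.2 ± 8.91 CPM (SD, n = 2), 0 in bud, and 0 and 2 in seedling. Relative to flower bud it was at least 253-fold higher (edgeR adjusted p = 1.71e-05). ZS11A08G015470 (15872 bp, chromosome A8, 13715248 to 13731119, plus strand) had 158 and 170 reads in silique, 21.8 ± 4.08 CPM, with none in seedling or flower bud, at least 134-fold higher relative to flower bud (edgeR adjusted p = 2.83e-05).

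Genes read in a single tissue were few among the long genes, as in the whole table. At 1 CPM or more in both libraries of a tissue and no read in the other 4 there were 4 seedling, 10 flower bud and 10 silique members among the 2024. The whole table of 65535 genes held 158, 536 and 476 such genes. Long genes also had more reads, with a median of 692.5 in total against 48 in shorter genes, and the part of this was not tested. The numbers are therefore not a result about long genes. The seedling number rests on the shallowest library and is not compared with the others.

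Among the long genes, calls of lower in flower bud or silique grew commoner with span. Lower in flower bud than in seedling were 22.7% of the tested members of 10 to 15 kb, 25.9% of those of 15 to 20 kb and 31.9% (61 of 191) of those of 20 kb and over, beside 21.8% of all genes and 19.3% of genes of 5 to 10 kb. Lower in silique than in seedling were 19.5%, 20.7% and 28.8% (55 of 191), beside 18% of all genes and 16.4% at 5 to 10 kb. These comparisons share the seedling libraries. Genes of 1 to 2 kb gave 24.4% (flower bud) and 19.4% (silique), so lower calls did not rise over the whole range of spans. In the 3 bands of long genes the share called higher did not rise in flower bud (19.3%, 17.5% and 17.8%). In silique it rose (14.4%, 15.9% and 16.8%), but less from the first band to the last than the share called lower. For the members of 20 kb and over the median log2 fold change was -0.20 in flower bud and -0.32 in silique, both against seedling, and -0.01 between silique and flower bud.

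The band of 20 kb and over was singled out after its values were seen, and the step with span was not tested. With limma on the normalized values 23.8% of its tested members were lower in flower bud, where all genes gave 14.7%, and 24.3% were lower in silique, where all genes gave 11.9%. Without seedling replicate 1 the shares were 28.3% against 20.6% and 29.3% against 17.3%. This band also overlapped other models most often, in 48.5% of its listed genes against 35.6% at 10 to 15 kb, and the part of overlap in the result was not tested. Over all long genes, members that overlap no model were called lower in silique than in seedling more often (22.9%) than those that do (17.8%).

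**Figure D4:**
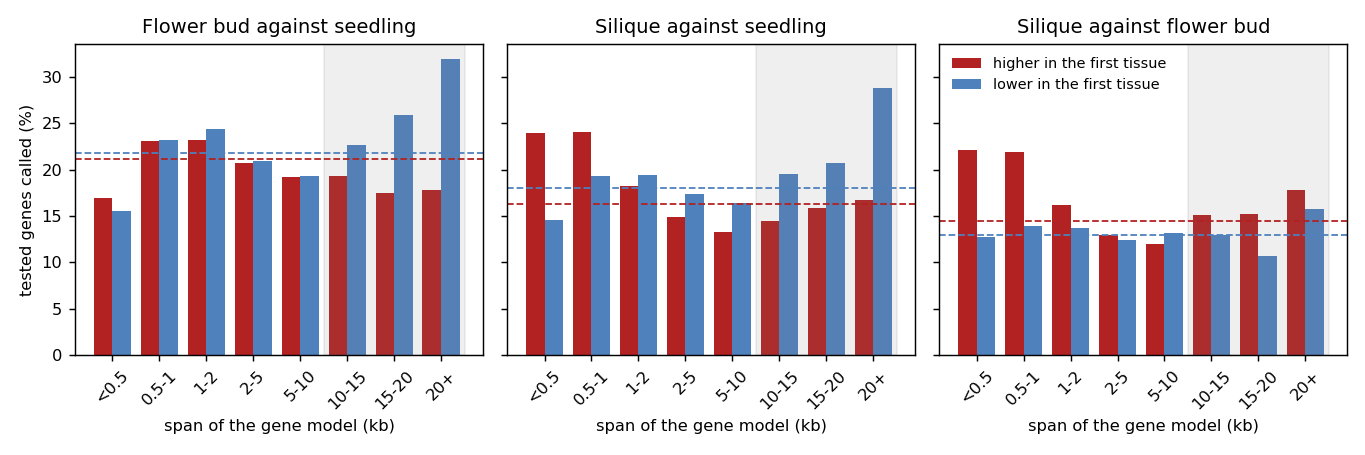
Percent of tested genes called higher (red) and lower (blue) in the first tissue of each pair, by span, with the bands of 10 kb and over shaded and dashed lines for all tested genes. At 20 kb and over, lower calls reach 31.9% (flower bud) and 28.8% (silique) against seedling, beside 15.7% in silique against flower bud.

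Genes called higher in 1 tissue than in both others can be counted as highest there. Of the tested long genes, 257 (16.2%) were highest in seedling, where 13.4% of all tested genes were. At 20 kb and over they were 45 of 191 (23.6%). Highest in flower bud were 135 (8.50%, against 8.34%) and in silique 96 (6.05%, against 5.6%). Lowest in seedling were 121 (7.62%, against 9.14%), in flower bud 136 (8.56%, against 8.13%) and in silique 57 (3.59%, against 3.58%). In no pair were 686 called (43.2%, against 43.5%), and 121 were called in all 3 pairs (7.62%, against 7.03%). Both comparisons behind a class share libraries. With limma on the normalized values 171 long genes (11.0%) were highest in seedling, beside 8.99% of all genes.

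Seedling replicates differed at long genes about as they did at genes of 2 to 10 kb. The median log2 ratio of replicate 2 to replicate 1 was -0.15 over the tested long genes and -0.10 over all genes in seedling, and rounded to between -0.00 and 0.02 in either group of genes in flower bud and silique. The seedling value was -0.13 both at 2 to 5 kb and at 5 to 10 kb, and -0.09 at 20 kb and over. The part of this gap between replicates in the lower calls was not tested beyond leaving out each library.

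How often a long gene was called depended on its level in a way that differed from shorter genes. At a mean of 5 to 10 CPM, 56.7% of long genes and 45.8% of genes under 10 kb were called between flower bud and seedling, 42.3% and 37.3% between silique and seedling, and 45.4% and 32.0% between silique and flower bud. At 80 CPM and over the order was reversed, with 36.7% and 55.4%, 35.7% and 47.0%, and 18.7% and 25.9%. Genes of 80 CPM and over made up 17.8% of the tested long genes and 6.95% of the shorter ones. The crossing was not tested, and a long gene reaches a given CPM at a lower level per kilobase.

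**Figure D5:**
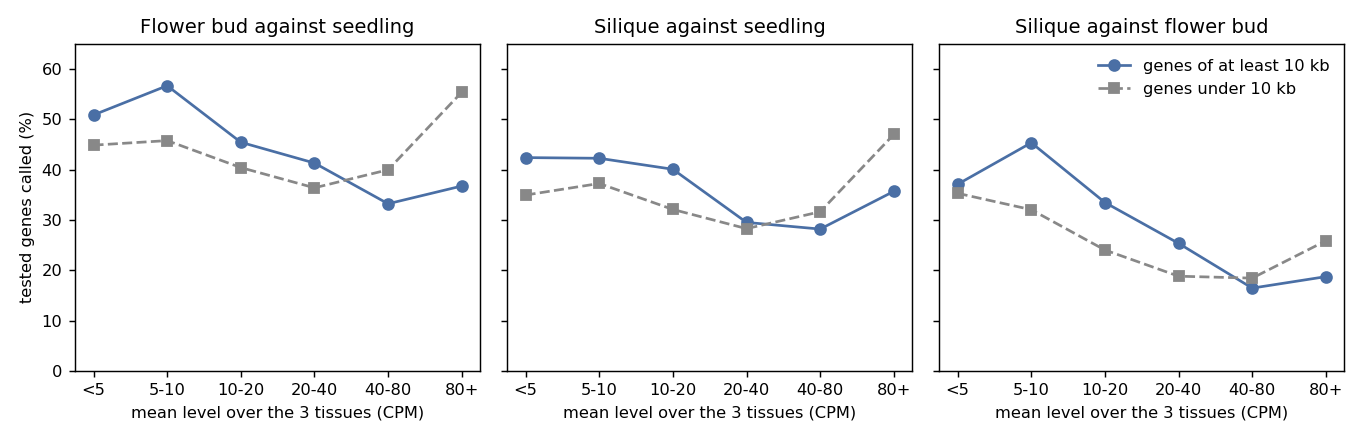
Percent of tested genes called in each pair of tissues against the mean level over the 3 tissues in CPM, for genes of at least 10 kb (blue circles) and under 10 kb (grey squares). Long genes lie above the shorter ones below 40 CPM and below them at 80 CPM and over in all 3 panels.

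The calls varied little with subgenome and gene density. Long genes of the A and C subgenomes were called at 43.8% and 41.6% between flower bud and seedling, 35.4% and 37.1% between silique and seedling, and 28.9% and 26.5% between silique and flower bud. In all genes the same shares were 43.6% and 41.3%, 34.6% and 33.3%, and 27.7% and 26.7%. Over the 3 classes of gene density the share of tested long genes called stayed between 42.8% and 43.5%, 35.1% and 37.0%, and 27.7% and 29.2% in the 3 pairs. By chromosome, the share called between flower bud and seedling ran from 36.6% of 82 tested members on A7 to 53.2% of 77 on A4. The share of all genes called was not taken by chromosome, so this range is not a result about long genes.

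Neighbouring models were both long in 78 pairs, 34 of them on the same strand, and the longest run held 3.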

How the data were processed

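Values came from deposited tables on HZ62. The deposited count table gives whole counts per gene in featureCounts layout, per the file headers. A normalized table gives a signal for each gene, scaled by the authors with TMM per its file name; whole reads recovered from it (100% of values whole within 0.05) served as an alternative. Per the submitters' processing notes, the tools were HISAT2, SAMtools, GATK, featureCounts and edgeR, while versions, roles, strand setting and genome build were not stated there, in the labels or in the files. Positions follow the deposited table, counted from 1, and the listed length equalled the span in 100% of genes.

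All 6 libraries entered 1 edgeR 4.0.16 quasi-likelihood fit (R 4.3.3) on the whole count table with TMM factors and filterByExpr (minimum count 10), with no block for replicate number and 3 residual degrees of freedom. Calls needed a Benjamini-Hochberg adjusted p under 0.05 over all 34296 tested genes and a log2 fold change of 1 or more in size. The spread is shared by the 3 tissues, so p-values between silique and flower bud also carry that between the seedling libraries. The fit was also run on simulated counts with known changes, and the outcome is not reported here. Alternatives used DESeq2 1.42.0, limma 3.58.1 (pseudocount 1 or 0.1), other factors, filters, call rules, length thresholds, single pairs and left-out libraries. Summaries used Python 3.11.15, pandas 2.3.3 and SciPy 1.17.1. A tissue at 0 reads was set to 3 counts over both libraries.

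Named per pair are the 2 members with the largest log2 fold change up and the 2 with the largest down, among called members that reach a mean of 10 CPM in the higher tissue, no overlap of libraries and no overlap with another model. Also named are the 3 longest, the 3 with the highest mean CPM, the 2 most even and the 2 genes on each side of the length threshold. Members, bands and rules were chosen with earlier results of these data known.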

Additional observations from a re-analysis of the deposited data

How the results depend on the processing

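Differences in the share of reads kept their sign under the alternatives run, while medians close to 0 changed sign and some counts of calls moved. In flower bud against seedling, members called higher numbered 468 and 504 with limma (pseudocounts 1 and 0.1), 476 by adjusted p alone and 172 with glmTreat. These were 30.0%, 32.3%, 30.0% and 10.8% of the members, beside 30.9%, 33.4%, 29.2% and 12.1% of all genes. The median log2 fold change was 0.41 and 0.48 with limma, -0.069 with each pair fitted alone and -0.078 in members that overlap no model. It was -0.10 to 0.10 with each library left out in turn. In silique against seedling, adjusted p alone gave 371 higher (23.4%, beside 22.9% of all genes). There glmTreat gave 143 higher and 211 lower (9.01% and 13.3%, beside 8.68% and 11.1% of all genes). The median was 0.26 and 0.32 with limma and -0.095 to 0.093 with a library left out. In silique against flower bud, adjusted p alone gave 308 lower (19.4%, beside 18.0% of all genes). There glmTreat gave 163 higher and 115 lower (10.3% and 7.24%, beside 8.58% and 7.46% of all genes). The median was 0.045 with relative log expression factors, 0.044 with DESeq2, -0.012 with upper quartile factors, and -0.095 and -0.104 with limma. It was -0.014 at a threshold of 8000 bp and -0.00073 to 0.11 with a library left out. Of the called members, 62.7% and 63.5% were higher in flower bud than in seedling with limma, against 43.4%. In silique against seedling, 59.5% and 60.7% were higher, against 41.8%. All genes turned as well. With limma 30.9% and 33.4% of them were higher and 14.7% and 15.9% lower in flower bud than in seedling. In silique against seedling, 22.1% and 23.7% of all genes were higher and 11.9% and 12.6% lower. Limma changes the scaling and the test at once, and the effects of these were not told apart. Long genes highest in seedling numbered 171 and 169 with limma and 161 with glmTreat. These were 11.0%, 10.8% and 10.1% of the members, beside 8.99%, 9.11% and 8.35% of all genes. With the replicate number as a block, 297 members were higher and 370 lower in flower bud against seedling (18.7% and 23.3%, beside 20.3% and 20.8% of all genes). Silique against seedling gave 233 and 314 (14.7% and 19.8%, beside 15.6% and 16.8% of all genes). Silique against flower bud gave 241 and 193 (15.2% and 12.2%, beside 13.5% and 11.8% of all genes). Deviations of replicate 1 from its tissue mean correlated between tissues at -0.0117, 0.0069 and -0.0225. With 2 libraries per tissue, these values cannot settle whether equal numbers pair libraries. Of the values of named genes, 15 passed the call threshold under an alternative where they had not before, and 2 no longer passed. Depth limits seedling most, where replicate 2 holds 2538852 reads of the count table.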
